A study of Mus musculus with 6 samples.

Results

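Galectins are lectins that bind β-galactoside sugars on glycoproteins and glycolipids. They are made without a signal peptide, act inside cells and, after secretion by an unconventional route, cross-link receptors into lattices at the cell surface. Prototype galectins carry a single sugar-binding domain, the chimera galectin-3 joins that domain to a long flexible tail, and tandem-repeat galectins link a pair of different domains. In tumours the family is known for effects on adhesion, on T cells and on the handling of damaged lysosomes.

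The 7 galectin genes Lgals1, Lgals2, Lgals3, Lgals4, Lgals7, Lgals8 and Lgals9 were taken by symbol from a gene count table of 41327 genes. RNA came from ID8 cells, an immortalized mouse line derived from the ovarian surface epithelium of strain C57BL/6, which grew asynchronously and received no treatment. The compared groups were Trp53-/- (Trp53_KO, n = 3) and Trp53+/+ (Trp53_WT, n = 3), Trp53 being the gene of the tumour suppressor p53. Both groups are derivatives of 1 cell line. How many clones stand behind each genotype, and whether the libraries of a group were separate cultures, is not given in the sources used here, so the p-values here reflect only how far these libraries vary, possibly for technical reasons. Total RNA was converted into stranded libraries.

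The libraries held 15319956 to 19954170 counts. Trp53 itself, at 25.3 to 29.6 CPM (counts scaled to library size with edgeR's TMM factors) in Trp53_KO and 97.3 to 110 in Trp53_WT, was lower in every library labelled knockout. Trp53_WT replicate 1 stood apart from replicates 2 and 3 of its group, with a chi-square per degree of freedom of 29.7 and 29.2 against 2.10 between those 2, so for the named genes whose log2 fold change depended most on it the value without it is given too. All 12 markers of ovarian surface epithelium and mesothelium passed the filter on low counts, with a summed level of 3890 to 4210 CPM in Trp53_KO and 3740 to 3850 in Trp53_WT. The near-equal sums hide differences between the markers, of which 6 were called higher in Trp53_KO and 4 lower. Upk3b stood at 531 against 73.7 CPM, Lrrn4 at 65.5 against 0.235, Amhr2 at 39.2 against 0.484 and Bnc1 at 0.0726 against 38.9, 4 markers named after their values were seen. Of these 4, Lrrn4 and Amhr2 passed the filter only through Trp53_KO and Bnc1 only through Trp53_WT. The direction of those calls was all but fixed by that. Of 10 immune cell markers, 5 had 0 counts in all libraries, among them Adgre1, Itgam, Cd3e and Tyrobp. The immune sum was 8.30 to 10.6 CPM in Trp53_KO and 32.4 to 35.4 in Trp53_WT, and most of that difference lay in Cd14, at 5.09 against 28.3 CPM. The sum of 4 fibroblast markers was 229 to 251 against 101 to 108 CPM. Most of that sum was Dcn, at 235 against 102 CPM, with Lum at 0 counts, and all 3 tested markers were called higher. Of these, Col15a1, at 9, 8 and 6 counts in Trp53_WT, passed the filter only through Trp53_KO, so its higher call adds nothing. The sum of 6 endothelial markers was 31.3 to 38.7 against 16.0 to 17.2 CPM, with Cdh5 and Kdr at 0. Most of that sum was Esam, at 32.8 against 14.98 CPM. Of the 3 endothelial markers tested, 2 were called higher, while Egfl7 was called lower, at 0.838 against 1.58 CPM. Of the 2 called higher, Pecam1, at 3, 3 and 2 counts in Trp53_WT, passed the filter only through Trp53_KO. Its higher call was all but fixed by that. The part of these differences in the galectin values was not tested, and in bulk RNA fewer cells of a type and less RNA per cell cannot be told apart.

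All 7 galectin genes passed the filter on low counts and were tested. Lgals1 and Lgals7 rose in Trp53_KO, Lgals3 and Lgals8 fell, and Lgals2, Lgals4 and Lgals9 did not pass the test. A gene was called at an adjusted p under 0.05 from edgeR's quasi-likelihood test, with Benjamini-Hochberg adjustment over 13651 genes. With 4 of 7 called, the galectins stand against a background of 30.3% of all tested genes called in either direction, 14.1% higher and 16.1% lower. The 3 Trp53_KO and 3 Trp53_WT values did not overlap for 5 of the 7, against 46.0% of all tested genes. The median log2 fold change of the 7 was 0.08, beside -0.02 for all tested genes.

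**Figure D1:**
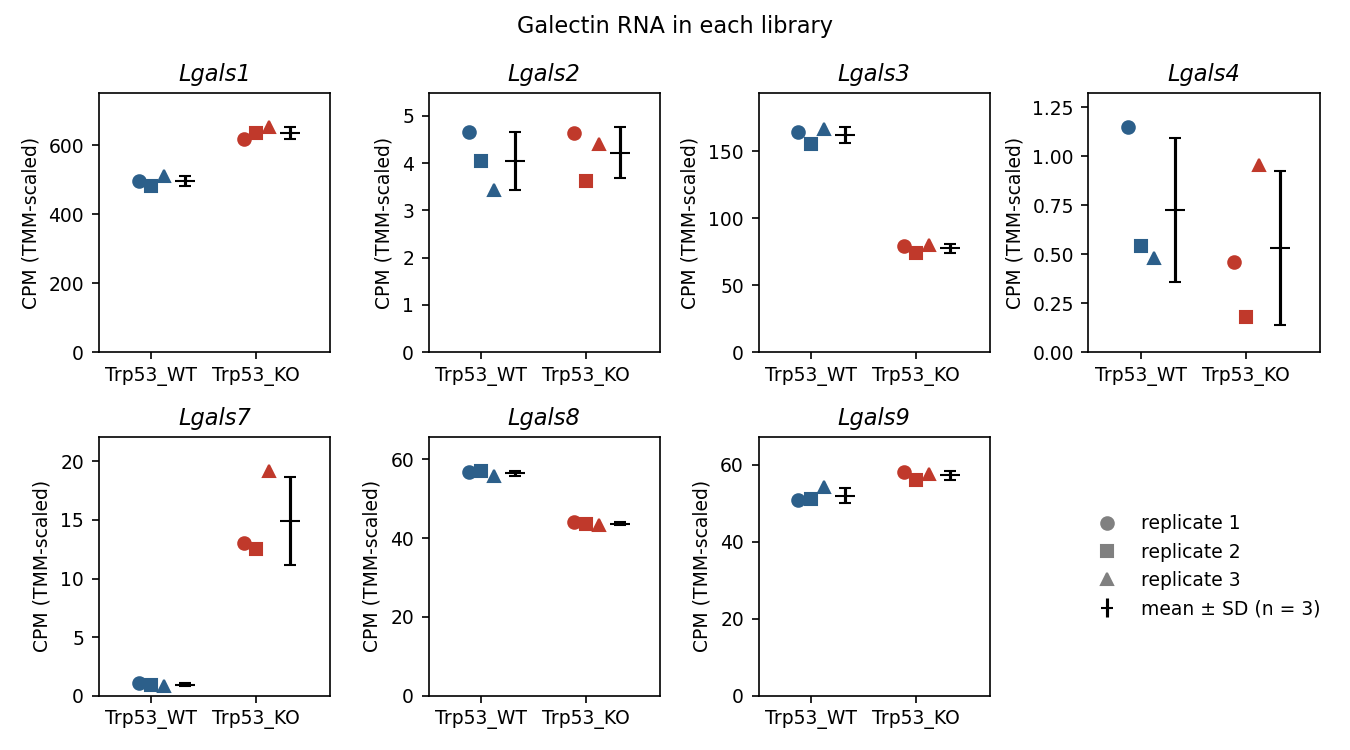
TMM-scaled CPM of each galectin gene (vertical axis, from 0) in the 3 Trp53_WT and 3 Trp53_KO libraries, with marker shapes for replicates and the mean ± SD of each group. The groups overlap for Lgals2 and Lgals4 and are apart for the other 5, with the widest relative gap in Lgals7.

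Among the prototype genes, Lgals7 changed most. Galectin-7 is a protein of stratified epithelia such as the epidermis, and the human gene was described among transcripts induced by p53. Its RNA was counted 256, 207 and 361 times in Trp53_KO replicates 1, 2 and 3, against 16, 19 and 15 times in Trp53_WT. Scaled, this was 13.1, 12.5 and 19.2 CPM (14.9 ± 3.72, SD, n = 3) in Trp53_KO and 1.08, 0.940 and 0.804 CPM (0.941 ± 0.138, SD, n = 3) in Trp53_WT. All 3 knockout libraries lay above all 3 wild-type libraries, and within the knockout group replicate 3 was higher than the other two. The log2 fold change of Trp53_KO over Trp53_WT was 3.99 ± 0.23 (SE; 95% interval 3.46 to 4.52; adjusted p = 1.40e-06 by edgeR's quasi-likelihood test). That is a 15.9-fold higher level, with an interval of 11.0 to 22.9, and 131 of 13651 tested genes rose more. Other markers of stratified epithelium did not share the rise: Krt5 had 0 counts everywhere, while Krt14 stood at 3.08 against 17.8 CPM and Trp63 at 1.88 against 2.70, both lower in Trp53_KO. The sum of the 6 markers of that list, Lgals7 included, was 17.9 to 24.5 CPM in Trp53_KO and 21.4 to 22.8 in Trp53_WT.

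Lgals7 lies at chr7:28863853-28866284 on the plus strand of GRCm38, 22145 bases from Lgals4. All 927 of its exon bases fall within the span of Gm10648, a gene model on the opposite strand, and the strand setting of the counting is not given in the sources used here, so reads of that strand could be included in its count. Within 50 kilobases 4 other genes were tested. Ech1 stood at 27.6 against 24.8 CPM (adjusted p = 0.208), Hnrnpl at 328 against 311 CPM (adjusted p = 0.369) and Lgals4 is described later. Actn4, the gene of an actin cross-linking protein, stood at 384 against 535 CPM (log2 fold change -0.48, adjusted p = 0.199). These 4 neighbours did not pass the test, while Lgals7 between them did.

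Promoter windows of Lgals7 and Lgals3 are shown because these genes had the largest changes. RefSeq gave a start for 6 of the 7 genes on GRCm38.p6, all except Lgals1, and the 250 bases before each start were searched on both strands. In Lgals3, Lgals7 and Lgals8 the searched window lies inside the gene model used here. Those models begin at chr14:47367751 for Lgals3, chr7:28863853 for Lgals7 and, on the minus strand, chr13:12464944 for Lgals8. The bases before these outer starts were not searched. The searched motifs were the p53 half-site and the full site, made of 2 half-sites at most 13 bases apart, then TATAAA as well as GGGCGG (the GC box), TGANTCA (the AP-1 site), and 2 copies of GAAA separated by 2 or 3 bases (the core of the interferon-stimulated response element). Bases that the gene annotation assigns to an exon are not printed, so the run for Lgals7 covers chr7:28864136-28864228 and the run for Lgals3 chr14:47373610-47373812, both on the plus strand. Capitals mark a GGGCGG motif.
Lgals7: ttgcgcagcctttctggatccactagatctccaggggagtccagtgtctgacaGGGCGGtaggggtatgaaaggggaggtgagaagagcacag
Lgals3: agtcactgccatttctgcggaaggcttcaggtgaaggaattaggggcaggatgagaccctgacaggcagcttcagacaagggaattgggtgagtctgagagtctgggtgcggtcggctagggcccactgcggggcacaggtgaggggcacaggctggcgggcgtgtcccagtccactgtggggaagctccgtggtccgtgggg

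The Lgals7 window held 1 GGGCGG, at position -197 from the start, and the Lgals3 window held 1 on the reverse strand, at position -7, within an annotated exon and so outside the printed run. GGGCGG was found in 32.7% of the 32851 promoters of the same length. None of the 6 galectin windows held a p53 half-site, a TATAAA or a TGANTCA, which were found in 7.13%, 12.4% and 6.75% of all promoters. The full p53 site was found in 0.0639%. The Lgals9 window held 1 pair of GAAA, at position -55, a motif found in 5.20% of all promoters. The windows of Lgals2, Lgals4 and Lgals8 held none of these letters. None of this says anything of sites outside 250 bases, or before the outer starts of Lgals3, Lgals7 and Lgals8.

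Lgals1 encodes galectin-1, a secreted prototype galectin known for inducing the death of activated T cells and for promoting the growth of blood vessels. Its RNA was the most abundant of the 7 per length of transcript. Its levels were 618, 636 and 653 CPM (636 ± 17.2, SD, n = 3) in Trp53_KO replicates 1, 2 and 3, and 497, 483 and 513 CPM (497 ± 14.9, SD, n = 3) in Trp53_WT. The lowest knockout library lay above the highest wild-type library. The log2 fold change was 0.35 ± 0.06 (SE; 95% interval 0.22 to 0.48; edgeR adjusted p = 0.00133), which is 1.28-fold higher with an interval of 1.17 to 1.40. Lgals1 lies at chr15:78926725-78930465 on the plus strand of GRCm38. Its nearest neighbour Nol12, a gene of a nucleolar protein 4468 bases away, stood at 38.3 against 31.2 CPM (log2 fold change 0.29, edgeR adjusted p = 0.0597).

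Lgals2, on the minus strand of the same chromosome at chr15:78850860-78855529, encodes the prototype galectin-2, best known from the gut epithelium. It was counted 91, 60 and 83 times in Trp53_KO and 69, 82 and 64 times in Trp53_WT. The levels of 4.64, 3.62 and 4.41 CPM overlapped with 4.66, 4.06 and 3.43 CPM. The log2 fold change of 0.08 ± 0.16 (SE; 95% interval -0.29 to 0.44; edgeR adjusted p = 0.768) was within the spread between replicates, and it was 0.18 without Trp53_WT replicate 1. Of its 592 exon bases, 38 lie within Cdc42ep1 on the opposite strand, a gene of a Cdc42 effector that rose from 208 to 256 CPM (log2 fold change 0.30, edgeR adjusted p = 0.00655). The Lgals2 count is uncertain for that reason.

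Lgals3, the gene of the chimera galectin-3, fell most among the galectins. Galectin-3 self-associates through its tail, is found in the nucleus, the cytoplasm and outside cells, and gathers on ruptured lysosomes. Its levels were 79.5, 73.7 and 79.6 CPM (77.6 ± 3.38, SD, n = 3) in Trp53_KO replicates 1, 2 and 3, and 164, 156 and 166 CPM (162 ± 5.71, SD, n = 3) in Trp53_WT. The knockout values clustered together, far below the wild-type values. The log2 fold change was -1.06 ± 0.07 (SE; 95% interval -1.21 to -0.91; edgeR adjusted p = 2.05e-06). The level in Trp53_WT was 2.09-fold that in Trp53_KO, with an interval of 1.89 to 2.32, and 589 of 13651 genes fell more. Lgals3 lies at chr14:47367751-47386160 on the plus strand of GRCm38. Its neighbour Dlgap5, a mitotic spindle gene, stood at 98.8 against 89.4 CPM (log2 fold change 0.14, edgeR adjusted p = 0.223), and Mapk1ip1l at 170 against 152 CPM (0.16, edgeR adjusted p = 0.0821).

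The tandem-repeat galectins differed among themselves. Lgals8 encodes galectin-8, which recognises sialylated sugars and recruits an autophagy receptor to damaged vesicles. Its levels were 44.0, 43.5 and 43.4 CPM (43.6 ± 0.332, SD, n = 3) in Trp53_KO and 56.7, 56.9 and 55.8 CPM (56.5 ± 0.620, SD, n = 3) in Trp53_WT. The libraries of a genotype lay close together and the groups were apart. Lgals8 fell by 0.37 on the log2 scale (SE 0.07; 95% interval -0.52 to -0.22; edgeR adjusted p = 0.00233). Lgals8 lies at chr13:12439415-12464944 on the minus strand, and 875 of its 3688 exon bases lie within Heatr1 on the opposite strand. Heatr1, a ribosome biogenesis gene, stood at 222 against 217 CPM (log2 fold change 0.03, edgeR adjusted p = 0.774), so reads of Heatr1 counted for Lgals8 cannot be told apart from its own.

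Lgals9 encodes galectin-9, a reported ligand of the T cell receptor TIM-3. Its levels were 58.3, 56.1 and 57.7 CPM (57.4 ± 1.14, SD, n = 3) in Trp53_KO and 50.8, 51.1 and 54.2 CPM (52.1 ± 1.86, SD, n = 3) in Trp53_WT. The groups did not overlap, yet the log2 fold change of 0.14 ± 0.07 (SE; 95% interval -0.02 to 0.30; edgeR adjusted p = 0.167) did not pass the test. Lgals9 lies at chr11:78962974-78984946 on the minus strand. Its tested neighbour Ksr1, a scaffold of MAP kinase signalling, rose (log2 fold change 0.36, edgeR adjusted p = 0.0202).

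Lgals4, at chr7:28833854-28841708 on the plus strand, encodes galectin-4 of the intestinal epithelium and was close to the detection limit. It was counted 9, 3 and 18 times in Trp53_KO and 17, 11 and 9 times in Trp53_WT. The groups overlapped, and the log2 fold change of -0.35 ± 0.54 (SE; 95% interval -1.56 to 0.86; edgeR adjusted p = 0.665) left a wide range of changes that could not be detected at this depth. Without Trp53_WT replicate 1 the value was 0.08. The intestinal markers Cdx1, Cdx2 and Fabp1 had 0 counts in all libraries.

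**Figure D2:**
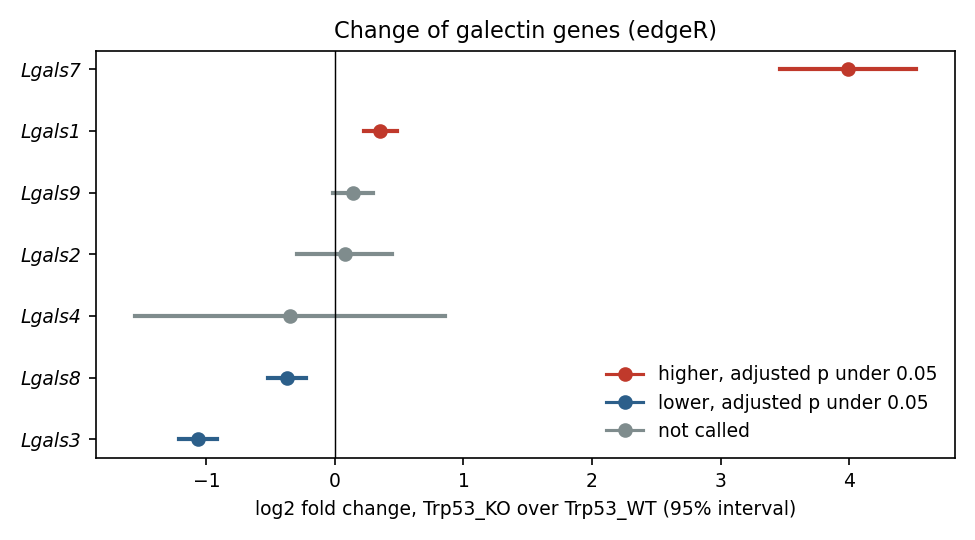
Log2 fold change of Trp53_KO over Trp53_WT (horizontal axis) with its 95% interval for each galectin gene. Lgals7 (3.99) and Lgals1 (0.35) are called higher and Lgals3 (-1.06) and Lgals8 (-0.37) lower, while the intervals of Lgals2, Lgals4 and Lgals9 include 0.

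Levels of different genes were compared as CPM per kilobase of exon. In Trp53_WT the order was Lgals1 (551 ± 16.5 CPM per kilobase, SD, n = 3), Lgals3 (87.3 ± 3.07), Lgals9 (24.4 ± 0.873), Lgals8 (15.3 ± 0.168), Lgals2 (6.84 ± 1.04), Lgals7 (1.02 ± 0.149) and Lgals4 (0.313 ± 0.159). In Trp53_KO it was Lgals1 (704 ± 19.0), Lgals3 (41.8 ± 1.82), Lgals9 (26.8 ± 0.535), Lgals7 (16.1 ± 4.01), Lgals8 (11.8 ± 0.0901), Lgals2 (7.14 ± 0.903) and Lgals4 (0.230 ± 0.170). Lgals7 thus moved from place 6 to place 4, passing Lgals2 and Lgals8. In both orders the values of neighbouring genes did not overlap over the 3 libraries of a group. The narrowest of these gaps in Trp53_KO was that between the lowest Lgals7 value, 13.5 CPM per kilobase, and the highest Lgals8 value, 11.9.

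**Figure D3:**
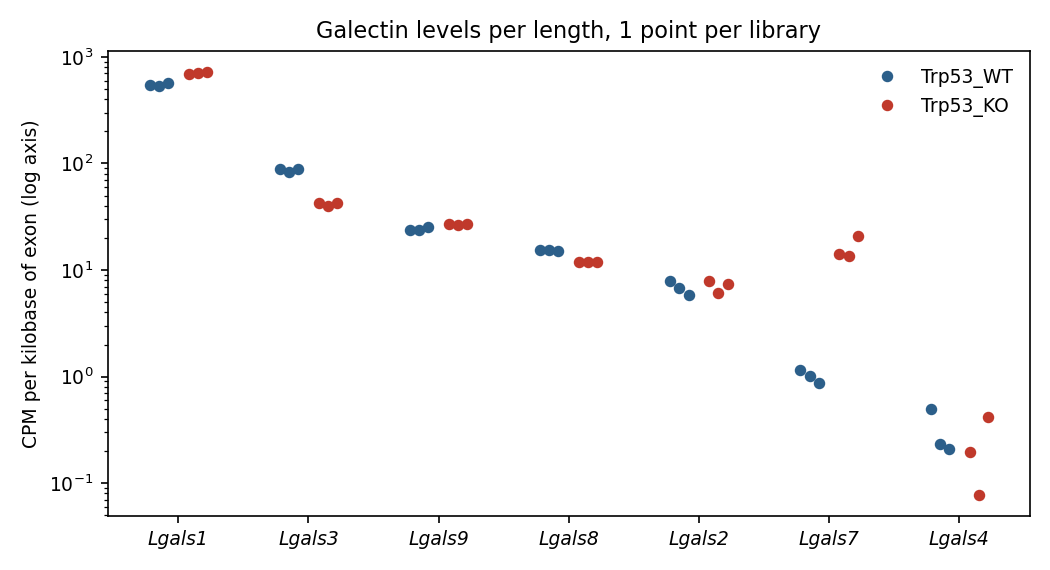
CPM per kilobase of exon (log axis) of each galectin gene, 1 point per library. Lgals7 rises from near 1 in Trp53_WT to above Lgals8 in Trp53_KO, while Lgals1 stays highest and Lgals4 lowest in both genotypes.

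The galectin RNA pool, summed per kilobase over the 7 genes, shifted further towards Lgals1. Lgals1 made up 86.8%, 87.9% and 86.8% of the sum in the Trp53_KO libraries and 80.0%, 80.3% and 80.6% in the Trp53_WT libraries. The share of Lgals3 was 5.42%, 4.95% and 5.14% against 12.9%, 12.6% and 12.7%. The share of Lgals7 was 1.79%, 1.68% and 2.49% against 0.170%, 0.152% and 0.123%. Shares of a sum depend on each other, and these are descriptions with no test. Per kilobase, Lgals1 RNA exceeded Lgals3 RNA 16.0, 17.8 and 16.9 times in Trp53_KO and 6.22, 6.38 and 6.34 times in Trp53_WT. Between the tandem-repeat genes, the Lgals9 to Lgals8 ratio of counts was 1.32, 1.29 and 1.33 in Trp53_KO and 0.896, 0.898 and 0.972 in Trp53_WT, a ratio that was higher in all 3 knockout libraries.

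Repeat copies inside galectin genes gave a second view of the same RNA, through the authors' deposited table of log2 fold changes and false discovery rates (FDR) per repeat locus and read direction. Introns are read from unspliced RNA, which total RNA libraries retain. Of the 773731 locus and direction combinations in the authors' deposited table, 0.284% were lower and 0.388% higher at an FDR under 0.05. Read in the direction of Lgals3, the authors' deposited table held 28 repeat loci in that gene, of which 27 had a fold change below 0 and 9 were lower at that FDR. Their median log2 fold change in the authors' deposited table was -1.68, and 26 of the 28 were intronic. In the opposite direction the authors' deposited table held 7 combinations in Lgals3, none with an FDR under 0.05. These loci come from the same libraries as the gene counts and share 1 transcript, so they are not independent of each other or of the fall of Lgals3. For comparison, 48.6% of all 561460 combinations read in the direction of an annotated gene were below 0 in the authors' deposited table.

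The lowest FDR in Lgals3 in the authors' deposited table belonged to B1F2, a B1-type short interspersed element at chr14:47376289-47376421 (mm10), with a log2 fold change of -2.26 and an FDR of 1.42e-05. It was followed in the authors' deposited table by ORR1A2, a long terminal repeat of the MaLR group at chr14:47375025-47375355, with -1.34 and 0.00121. Next in the authors' deposited table came PB1D10 at chr14:47383196-47383308 with -2.33 and 0.0033, and the ancient element MIRc at chr14:47376930-47377141 with -1.40 and 0.00397. All 9 were intronic, and they belong to different repeat families, with both orientations of the element among them.

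The other galectin genes gave fewer such loci. Of all combinations read in the direction of an annotated gene, 50.4% were above 0 in the authors' deposited table. In the authors' deposited table all 8 loci read in the direction of Lgals1 were above 0 (median 0.54), 29 of 41 in Lgals8 were below 0 (median -0.33), and none of either had an FDR under 0.05. In Lgals9, 33 of 50 were above 0 in the authors' deposited table, many of them only just (median of the 50, 0.01). One of them, the young B2 copy B2_Mm1t at chr11:78975646-78975838 (mm10), had a log2 fold change of 3.43 and an FDR of 0.0324 in the authors' deposited table. Lgals2 held 8 and Lgals4 held 6 loci in their own direction, none at that FDR in the authors' deposited table, and Lgals7 held none.

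**Figure D4:**
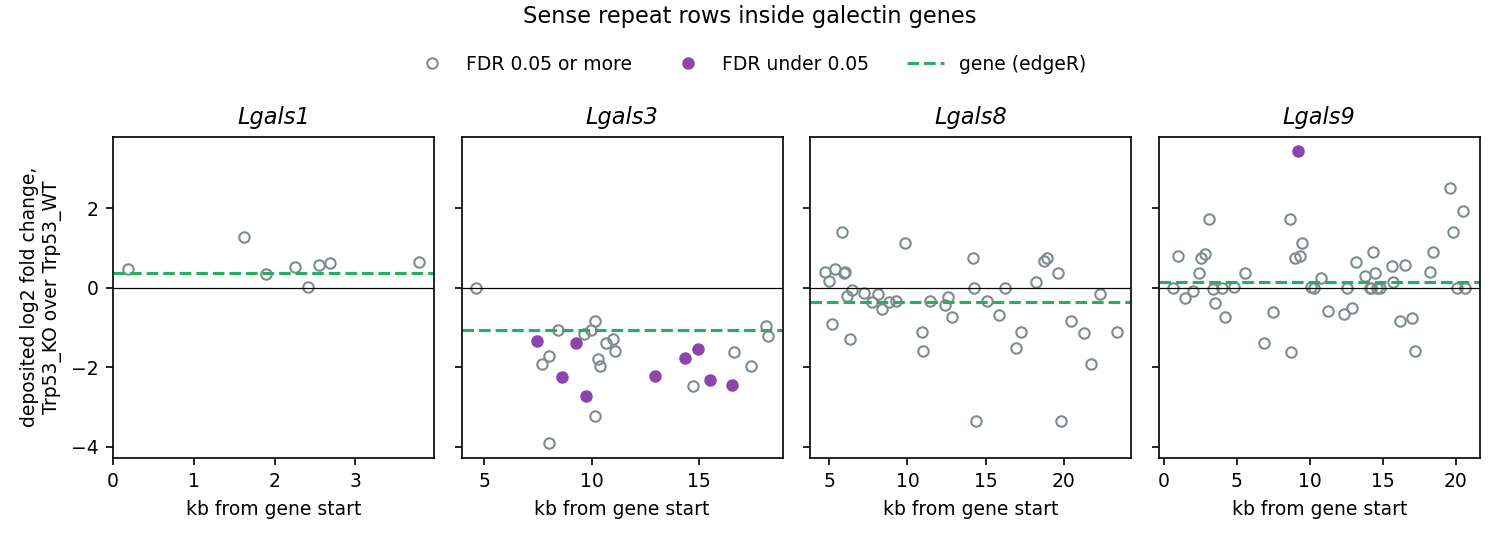
Log2 fold change from the authors' deposited table (vertical axis) of repeat loci read in the direction of the gene, against distance from the gene's start in kilobases, with filled points for an FDR under 0.05. In Lgals3, 27 of 28 loci lie below 0.

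Of a list of other genes of or linked to the galectin family, Lgals12 and Grifin had 0 counts in all libraries. Lgals3bp, a secreted glycoprotein that binds galectin-3 but is not itself a galectin, fell. Its level was 54.8 ± 2.10 CPM in Trp53_WT and 17.2 ± 2.41 CPM in Trp53_KO (SD, n = 3). The log2 fold change was -1.67 ± 0.10 (SE; edgeR adjusted p = 2.05e-06). Its ratio of counts to Lgals3 was 0.251, 0.211 and 0.202 in the Trp53_KO libraries and 0.348, 0.345 and 0.322 in the Trp53_WT libraries, a lower ratio in all 3 knockout libraries, with no test of that difference. Lgalsl, the gene of a galectin-related protein, had 0 counts in all 3 Trp53_KO libraries and 29, 34 and 42 in Trp53_WT. Taking 3 counts over the 3 libraries as the floor, it was at least 35.8-fold lower. Lgals3bp and Lgalsl were thus called lower and none of this list higher, also with DESeq2 and limma-voom. None was higher at an unadjusted p under 0.05. Lgalsl passed the filter on low counts only through Trp53_WT, so its lower call was all but fixed by that.

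Galectins act through glycoproteins, and of 33 listed binding partners 29 were tested, with 4 higher, 11 lower and 14 not passing the test. That is 51.7% called, beside 30.3% of all tested genes, and the median log2 fold change was -0.21. Muc1, named after its values were seen, had 9, 10 and 11 counts in Trp53_WT and passed the filter only through Trp53_KO. Its higher call adds nothing to the share. The lists were chosen with earlier results of these data known. For this list and those below, a share above the background is therefore a description and not support. Mcam, an adhesion receptor of endothelium and melanoma, rose from 0.912 ± 0.284 to 17.3 ± 1.72 CPM, by 4.24 ± 0.19 (SE) on the log2 scale (edgeR adjusted p = 2.08e-07). The sums of the endothelial and fibroblast markers, mostly Esam and Dcn, were higher as well, while the endothelial marker Egfl7 was lower. The part of these markers in the rise of Mcam was not tested. Alcam, an adhesion molecule that binds CD6, fell from 85.3 to 39.6 CPM (-1.11). Lamp2, a heavily glycosylated protein of the lysosomal membrane, fell from 403 to 252 CPM (-0.68), and Ceacam1, an adhesion receptor, from 5.82 to 1.37 CPM (-2.05). Also named after their values were seen were Cd44 and Havcr2. Cd44, the hyaluronan receptor, fell from 635 ± 68.6 to 349 ± 39.4 CPM (-0.86, edgeR adjusted p = 0.000156). Havcr2, the gene of TIM-3, fell from 19.0 ± 2.10 to 9.65 ± 1.65 CPM (-0.98, edgeR adjusted p = 0.000536). Only 2 partners were higher when Trp53_KO replicate 1, Trp53_KO replicate 3 or Trp53_WT replicate 2 was left out, with a filter of at least 5 CPM, at an adjusted p under 0.01, and with DESeq2, which called 8 lower.

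Enzymes that build galectin ligands changed in both directions. Of 27 genes of N-glycan branching and N-acetyllactosamine (LacNAc) extension, 23 were tested, 7 were higher, 8 lower and 8 did not pass (median -0.11). That is 65.2% called, beside 30.3% of all tested genes. B3gnt3, B3gnt7 and B3gnt9 belong to the family that adds N-acetylglucosamine to galactose. B3gnt3 fell from 110 to 45.0 CPM (log2 fold change -1.29, edgeR adjusted p = 2.91e-06). B3gnt7 rose from 0.687 to 3.17 CPM (2.22, and 2.41 without Trp53_WT replicate 1) and B3gnt9 from 7.40 to 14.9 CPM (1.01). Man1c1, a mannosidase of early N-glycan trimming, rose from 0.188 to 2.91 CPM (3.93). With 3 or 4 counts per Trp53_WT library, Man1c1 passed the filter on low counts only through Trp53_KO. Its higher call was all but fixed by that and adds nothing to the share. B4galt2, named after its values were seen, had 12, 16 and 9 counts in Trp53_WT. It too passed the filter only through Trp53_KO, so its higher call adds nothing to the share either. Mgat5, which makes the branch that carries preferred galectin-3 ligands and was named after its values were seen, fell from 54.1 ± 11.9 to 30.3 ± 1.73 CPM (-0.83, edgeR adjusted p = 0.00148), and the value was -0.64 without Trp53_WT replicate 1.

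Of 18 genes that start and branch mucin-type O-glycans, 14 were tested, 2 were higher, 9 lower and 3 did not pass. That is 78.6% called, beside 30.3% of all tested genes, of which 16.1% were lower. Gcnt4 and Galnt18, at 0 counts in Trp53_KO, and Gcnt3, at 12, 6 and 7, passed the filter on low counts only through Trp53_WT. Their lower calls were all but fixed by that and add nothing to the share. With a filter of at least 5 CPM, 7 were lower and 2 higher, and Gcnt3 passed that filter too only through Trp53_WT. The median log2 fold change was -0.51, also with the 2 genes at 0 counts set at their bounds. Gcnt3, which makes the branched core structures of mucins, fell from 20.3 to 0.449 CPM (-5.46, edgeR adjusted p = 4.04e-08). Gcnt4, of the same family, had 0 counts in Trp53_KO and 126 in all in Trp53_WT, which with the same floor is at least 43.0-fold lower. C1galt1, which adds the galactose of the core structure, fell from 226 to 137 CPM (-0.72), and Galnt11, an initiating transferase, from 38.1 to 22.6 CPM (-0.75).

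Of 22 genes of sialic acid capping, which blocks or alters galectin binding, 15 were tested, 1 was higher, 4 lower and 10 did not pass (median -0.17). The 33.3% called is near the 30.3% of all tested genes, so the genes named next are single genes and not a result about the list. The sialyltransferase gene St3gal6 fell from 50.4 to 28.3 CPM (-0.83), St3gal1 from 56.0 ± 15.9 to 33.0 ± 3.02 CPM (-0.76, and -0.51 without Trp53_WT replicate 1) and St3gal2 from 152 to 116 CPM (-0.40). Neu1, the lysosomal sialidase, fell from 35.3 to 27.5 CPM (-0.36, edgeR adjusted p = 0.0101), a call that was lost without Trp53_KO replicate 1 (edgeR adjusted p = 0.0524) or Trp53_WT replicate 2 (edgeR adjusted p = 0.0578). The higher gene, named after its values were seen, was St6galnac4, a sialyltransferase (0.49, edgeR adjusted p = 0.0160), and none was higher without Trp53_KO replicate 1, Trp53_KO replicate 3 or Trp53_WT replicate 2.

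Galectin-3 and galectin-8 mark damaged lysosomes, and of 27 genes of the response to such damage 24 were tested with edgeR, 6 lower, none higher and 18 not passing (median -0.08). The 25.0% called is below the 30.3% of all tested genes, so these too are single genes and not a result about the list. At an unadjusted p under 0.05, 1 was higher and 8 lower, and DESeq2 and limma-voom each also called 0 higher. Tfe3, a transcription factor of lysosome genes, fell from 56.7 to 33.4 CPM (-0.76), Optn, an autophagy receptor, from 50.1 to 30.5 CPM (-0.72), and Mcoln1, a lysosomal calcium channel, from 35.1 to 22.8 CPM (-0.62). Nbr1, another autophagy receptor, fell from 135 to 116 CPM (-0.22, edgeR adjusted p = 0.0183), but its adjusted p lay between 0.0637 and 0.0954 when replicate 1 or 3 of Trp53_KO, or replicate 2 or 3 of Trp53_WT, was left out. Only 3 genes were lower without Trp53_KO replicate 1 or 3, and 1 was higher without Trp53_KO replicate 2.

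**Figure D5:**
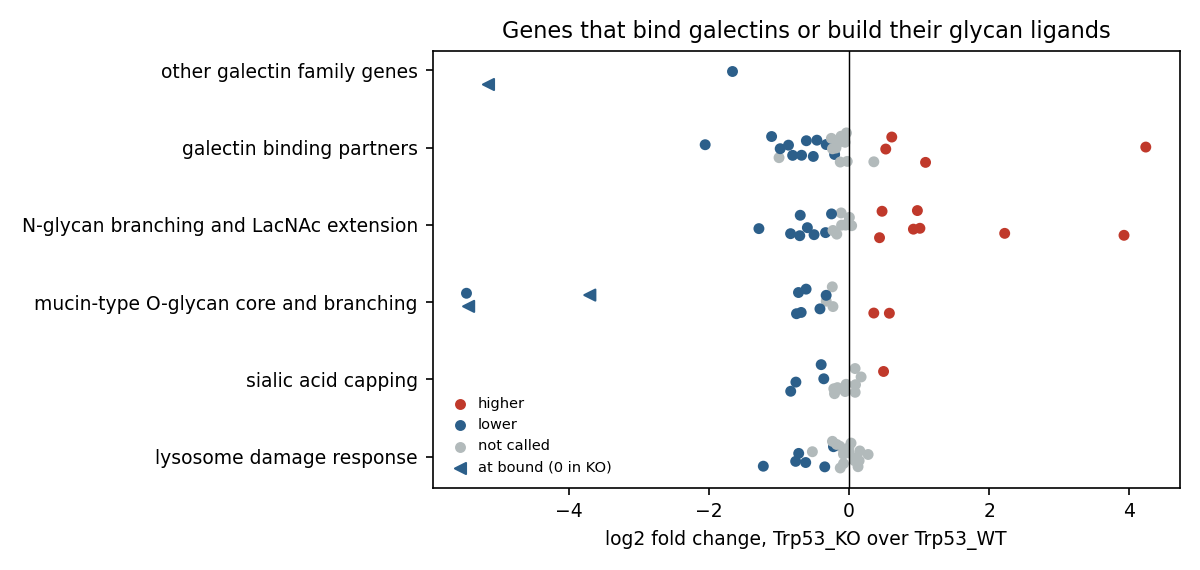
Log2 fold change of Trp53_KO over Trp53_WT (horizontal axis) for the tested genes of 6 lists, 1 point per gene, with triangles at the bound for genes at 0 counts in Trp53_KO. Gcnt3 lies at -5.46 among the mucin-type O-glycan genes and Mcam at 4.24 among the binding partners, while genes drawn as triangles may lie anywhere below their bound.

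For each called galectin, the genes with the most similar profile were found as those with the smallest root mean square difference in centred log2 CPM over the 6 libraries, among 9734 genes. For Lgals7 these were Tmem184a (0.128), Plekha7 (0.234) and Adamts14 (0.260). Tmem184a rose from 0.800 to 12.1 CPM and Plekha7 from 2.10 to 33.5 CPM. For Lgals3 they included Parp14 (0.0449) and Fgfr2 (0.0514), and Parp14 fell from 39.0 to 18.7 CPM. Those of Lgals1 were Kdm2b (0.0177), Rbpms (0.0220) and Rassf3 (0.0283), and those of Lgals8 included Acsl5 (0.0175) and Golga5 (0.0202). The difference between the genotypes makes up most of each profile, so these are genes that moved by a similar amount.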

How the data were processed

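Stranded total RNA libraries of ID8 cells were analysed from 2 deposited tables. Raw counts per gene were deposited by the authors, and the second table holds the authors' log2 fold change and p-value adjusted as FDR per repeat locus and read direction. The submitters' processing notes name STAR, featureCounts, edgeR and the build mm10, with versions, settings and strand option not given in the sources used here. Groups followed the genotype in the labels.

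Counts were filtered with filterByExpr, scaled with TMM and tested with edgeR 4.0.16 (quasi-likelihood test, genotype as the only term, R 4.3.3) over 13651 genes, with Benjamini-Hochberg adjustment at 0.05. The SE is the log2 fold change divided by the root of F, and intervals are approximate. On simulated counts of this comparison, over 13491 genes, 52 of 100 changes of 0.5 and 99 of 100 changes of 1 on the log2 scale were recovered. The simulation gave every gene the same variation between libraries (9.75%) and held no library apart like Trp53_WT replicate 1. Recovery in the real libraries may therefore be lower. Alternatives used DESeq2 1.42.0, limma 3.58.1, other scaling and filters, a replicate block and each library left out. GENCODE M21 supplied gene models (GRCm38, which is mm10) and RefSeq the promoters (GRCm38.p6). Intervals and floors cover counting error and library spread only.

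The members and lists were chosen with earlier results of these data known. Named genes were all 7 members, Trp53, up to 4 tested genes of lowest adjusted p per list, and the 3 closest profiles per called member (prior count 2, mean of at least 5 CPM, predicted models left out), with a few others said to be named after their values were seen. Some genes that this rule names are not reported here.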

Additional observations from a re-analysis of the deposited data

How the results depend on the processing

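The 4 called galectins kept their direction and stayed past the threshold under all 14 alternatives, and 4 galectins were called in each. The log2 fold change ranged from 0.34 to 0.39 for Lgals1, -1.08 to -1.02 for Lgals3, 3.77 to 4.11 for Lgals7 and -0.37 to -0.35 for Lgals8, and Lgals9 stayed uncalled, at 0.12 to 0.18. Lgals2 ranged from -0.022 to 0.177 and Lgals4 from -1.058 to 0.080 when a library was left out, so the sign of these uncalled values turned, and neither passes a filter of at least 5 CPM. Lgals7, at 14.9 CPM in Trp53_KO and 0.941 in Trp53_WT, passed that filter only through Trp53_KO. Its call under that filter is therefore no support. Over all genes, 4130 were called, 2578 at an adjusted p under 0.01, and 2977 to 4984 with a library left out, the most without Trp53_WT replicate 1. With a replicate block 3806 genes and 4 galectins were called. Deviations of same-numbered libraries correlated at -0.05, 0.08 and -0.12, so the numbers do not pair them, and not every library correlated best with its own number. Of the list genes 54 were called, with a range of 40 to 59. At an FDR under 0.01, 5 repeat loci in galectin genes were called in the authors' deposited table in place of 10, and 12 with 10 kilobases of flank added. The per-kilobase order kept all 7 places with the longest transcript as length. Depth limits Lgals4 most, at 3 to 18 counts per library.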
